A study of Arabidopsis thaliana with 15 samples.

Results

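RNA from inflorescence meristems of Arabidopsis thaliana, the shoot apices that produce flowers, was compared between a line labelled pMYB3R4::GFP-MYB3R4mNES (called the mNES line here) and a mutant labelled myb3r4. The mNES line carries GFP-tagged MYB3R4 under a MYB3R4 promoter. The members were chosen by label as 6 of the 15 libraries, 3 in each group, and 21737 of 33326 genes with a transcript level of at least 1 TPM in 3 or more of the 15 libraries were tested. TPM is a transcript level corrected for length and scaled to a total of 1000000 per library. The other 9 libraries were the wild type Col-0, myb3r1 and myb3r1myb3r4, with 3 each. Each library pooled 36 dissected apices, with only the open flowers taken off, from plants with stems of about 1 cm. All groups were grown alike, under long days (16 h light, 8 h dark) of 170 µmol m-2 s-1, with 21 °C in the light and 17 °C in the dark. The labels give neither the mutant alleles, nor the background that carries the transgene, nor the number of independent transgenic lines. A difference between the groups therefore cannot be told apart from a difference between their backgrounds. The labels do not spell out mNES; in published work on this gene it stands for a mutated nuclear export signal.

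MYB3R proteins are transcription factors that time the expression of genes needed in G2 and mitosis. They bind the mitosis-specific activator (MSA) element, whose core is AACGG. MYB3R4 is known mainly as an activator of mitotic and cytokinesis genes, MYB3R3 and MYB3R5 as repressors, and MYB3R1 as both. Cytokinin is known to promote the entry of MYB3R4 into the nucleus, with the help of the importins IMPA3 and IMPA6.

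In the mNES line 2522 genes were higher than in myb3r4 and 3882 lower. The largest rises were mostly in non-coding or little-known genes such as AT1G04425. The receptor-like kinase gene IMK2 had the smallest p of the genes at a mean of at least 10 TPM. Genes of cell division went both ways. The B2-type cyclins CYCB2;1 and CYCB2;2, the cytokinesis syntaxin KN and the division-plane gene TAN were higher, and CYCB1;1, B-type cyclin-dependent kinases and the spindle checkpoint gene BUBR1 were lower. Genes of rapid stress responses and of salicylic acid signalling were mostly lower, and genes of mature pollen and of egg cell-secreted-like peptides were mostly higher.

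Replicates were more alike than libraries from opposite groups. Across genes, log2 levels correlated with r of 0.985 to 0.988 within the mNES line, 0.985 to 0.986 within myb3r4 and 0.955 to 0.967 between the groups, where genes are not independent. On the log2 scale, the SD over 3 replicates had a median over genes of 0.0917 in the mNES line and 0.0827 in myb3r4. Read totals cannot be had from TPM, so depth is unknown. Separate plants for each replicate are not stated in the labels, so the p-values reflect variation among these libraries only, which may be technical. The meristem genes WUS, STM and ANT were detected in all 6 libraries, whereas CLV3, a marker of stem cells, was under the minimum level and not tested. Floral and anther genes were abundant too. In such bulk samples fewer cells of a type and less RNA per cell cannot be told apart.

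The targeted gene was measured first. MYB3R4 (AT5G11510, chromosome 5, 3679748 to 3684884, TAIR10.1) stood at 12.7, 13.4 and 13 TPM in the 3 myb3r4 libraries, at 59.8, 63.5 and 58.9 TPM in the mNES line and at 12.8, 10.4 and 10.4 TPM in Col-0. All mNES libraries were far above the others, and the level in myb3r4 was not below that of Col-0. The difference between the mNES line and myb3r4 was 2.18 on the log2 scale, with SE 0.0661 and a limma adjusted p of 1.16e-10 (n = 3 in each group). Reads from the transgene count toward the gene, and a gene total does not test an insertion in it. Among its relatives, MYB3R3 was higher by 0.25 (limma adjusted p = 0.0342) and MYB3R1 lower by 0.15 (limma adjusted p = 0.0327). Both of these calls were lost in the fit to only the 6 libraries compared, and that of MYB3R1 also with median-of-ratios scaling.

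The 2522 higher genes were 11.6% of those tested and the 3882 lower genes 17.9% (limma on log2(TPM + 0.5), Benjamini-Hochberg adjusted p under 0.05). The split depended on scaling. Median-of-ratios scaling gave 3365 higher and 2825 lower genes, and upper-quartile scaling 3107 and 3071. Of genes past a 2-fold difference, 727 were higher (3.34%) and 196 lower (0.902%). Levels did not overlap between the groups for 3530 genes with the mNES line above (16.2%) and 5478 with it below (25.2%). The median gene differed by -0.03 on the log2 scale. In the plot of difference by level, the widest differences were rises.

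**Figure D1:**
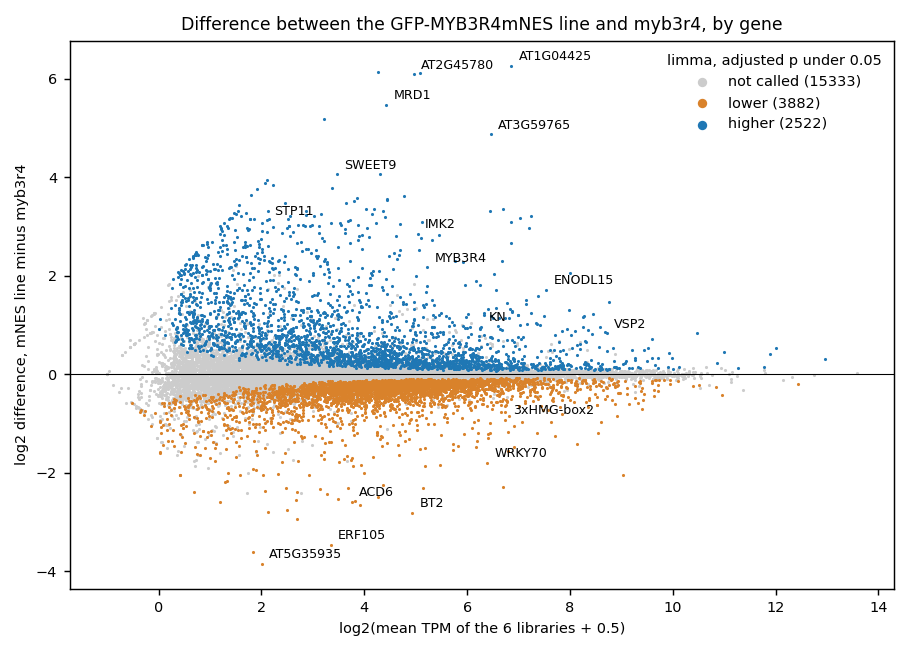
Log2 difference between the mNES line and myb3r4 for each of the 21737 genes tested, against the log2 mean TPM of the 6 libraries; colours mark genes higher (2522), lower (3882) and not called. Rises reach 6.26 (AT1G04425) and falls 3.84 (AT5G35935).

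Among the 10 genes with the largest rises, 5 are annotated only as other RNA. The largest was in one of these, AT1G04425 on chromosome 1. It stood at 1.61, 3.09 and 2.97 TPM in myb3r4, 213, 244 and 228 TPM in the mNES line and 38, 36.3 and 35.2 TPM in Col-0. The 3 groups did not overlap, and the mNES line lay above Col-0 as well as above myb3r4. The difference from myb3r4 was 6.26 (SE 0.176, limma adjusted p = 7.29e-11). AT1G04425 overlaps the antisense gene AT1G08835, and without a stated strand their reads cannot be told apart.

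AT2G45780, also annotated as other RNA, was at 0.56, 0.277 and 0.381 TPM in myb3r4, 55.2, 63.2 and 64.8 TPM in the mNES line and 2.43, 1.51 and 1.15 TPM in Col-0. It was thus low in both Col-0 and myb3r4 and high in the mNES line alone among these 3 groups, with a difference of 6.09 from myb3r4 (SE 0.196, limma adjusted p = 2.1e-10). AT3G59765, another such RNA, had 4.71, 6.93 and 4.46 TPM in myb3r4, 162, 168 and 177 TPM in the mNES line and 26.5, 23.4 and 24.6 TPM in Col-0, and rose by 4.88 (limma adjusted p = 2.24e-08). AT3G05152 rose by 6.12 to a mean of 66.1 TPM, and AT3G42725, a putative membrane lipoprotein, by 6.14 to 37.6 TPM. AT3G61118 was listed at 0 in all 3 myb3r4 libraries and at 20.1, 15.2 and 17.8 TPM in the mNES line. AT2G40995, a DnaJ-type chaperone, was likewise listed at 0 in myb3r4 and stood at 4.74, 11.1 and 6.9 TPM in the mNES line.

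AT3G51230, of the chalcone-flavanone isomerase family, whose enzymes act in flavonoid synthesis, was at 1.84, 1.37 and 2.05 TPM in myb3r4, 34.5, 39.9 and 35.8 TPM in the mNES line and 11, 8.61 and 9.38 TPM in Col-0. The groups did not overlap, and the difference was 4.05 (SE 0.153, limma adjusted p = 1.22e-09). SWEET9, a sugar exporter of nectaries, had 0, 0.431 and 2.81 TPM in myb3r4 and 31.1, 14.6 and 14.7 TPM in the mNES line and rose by 4.07 (limma adjusted p = 0.000152); it varied more between replicates than the other genes of this set.

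The 250 bases before the annotated start of each gene were searched for AACGG on both strands, where CCGTT is the same core on the other strand. All tested genes with a full window held it in 21.9% of cases (4702 of 21468), and 4.07% held 2 or more copies. Of the 10 largest rises, 8 (80%) held the core and 7 (70%) held 2 or more copies. Over all genes called higher the share with the core was 23.4%, and over those called lower 20.5%. Over genes called at least 2-fold higher it was 22.1% (159 of 720), and 5.83% of these held 2 or more copies. A match describes letters and not a bound site, and the 10 genes were picked by their rise. The windows of AT3G51230 and AT1G04425, which hold 8 and 6 copies, are printed because they carry the most copies among these 10; they were chosen after the values were seen. They were read 5′ to 3′ on the gene's strand from RefSeq's TAIR10.1, at chr3:19024353-19024602 (minus strand) and chr1:1193937-1194186 (plus strand), and capitals mark each core in either orientation.
AT3G51230: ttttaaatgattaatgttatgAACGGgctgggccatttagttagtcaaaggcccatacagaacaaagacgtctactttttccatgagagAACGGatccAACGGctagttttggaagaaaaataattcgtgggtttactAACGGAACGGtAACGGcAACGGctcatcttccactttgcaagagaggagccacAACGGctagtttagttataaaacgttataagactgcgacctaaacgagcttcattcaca
AT1G04425: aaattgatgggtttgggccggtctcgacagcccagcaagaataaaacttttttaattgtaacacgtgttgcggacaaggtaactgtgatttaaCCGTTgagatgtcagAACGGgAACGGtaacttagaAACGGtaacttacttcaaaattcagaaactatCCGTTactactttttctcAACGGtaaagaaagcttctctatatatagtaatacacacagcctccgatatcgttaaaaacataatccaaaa

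Of the genes with the smallest p at a mean level of at least 10 TPM, IMK2 came first. It encodes a receptor-like kinase known from inflorescence meristems. IMK2 was at 7.81, 7.63 and 7.11 TPM in myb3r4, 56.1, 60.8 and 55.4 TPM in the mNES line and 31.2, 28.7 and 30.8 TPM in Col-0. The 3 groups were well apart with Col-0 in the middle, and the difference between the mNES line and myb3r4 was 2.85 (SE 0.0534, limma adjusted p = 1.84e-12). Its window held no AACGG.

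ENODL15, an early nodulin-like cell surface protein, was at 86.3, 86.3 and 86.8 TPM in myb3r4 and 266, 292 and 297 TPM in the mNES line, against 218, 213 and 206 TPM in Col-0. It rose by 1.71 (limma adjusted p = 6.84e-11), with no overlap. AT5G55180, a glycosyl hydrolase of family 17, whose members cut callose-type glucans, rose by 1.90, from a mean of 29.8 to 113 TPM (Col-0 103 TPM). AT3G51720, a WEB family protein, rose by 2.31, from 17.9 to 90.3 TPM (Col-0 49.7 TPM).

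A pair of genes set myb3r4 apart from both the mNES line and Col-0. MRD1 was at 0.55, 0.254 and 0.578 TPM in myb3r4, 40.7, 42.2 and 41.8 TPM in the mNES line and 44.5, 43.4 and 49.2 TPM in Col-0. The mNES and Col-0 libraries were close and those of myb3r4 were near 0, a difference of 5.47 (SE 0.15, limma adjusted p = 6.84e-11). The other two mutants were low as well, with means of 0.191 TPM in myb3r1 and 0.191 TPM in myb3r1myb3r4. MRD1 overlaps the antisense gene HEI10, known for a role in meiotic crossovers, which rose by 1.30 from a mean of 2.58 to 7.09 TPM, and the reads of the pair cannot be told apart. AT5G35935, an uncharacterized gene, did the opposite. It was at 6.9, 7.27 and 6.81 TPM in myb3r4 and 0.0446, 0.00894 and 0.0131 TPM in the mNES libraries, a fall of 3.84 (limma adjusted p = 2.7e-11). Its mean was 0.0114 TPM in Col-0, 7.44 TPM in myb3r1 and 8.48 TPM in myb3r1myb3r4. For both genes the mNES line was like Col-0 and unlike the 3 mutants.

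**Figure D2:**
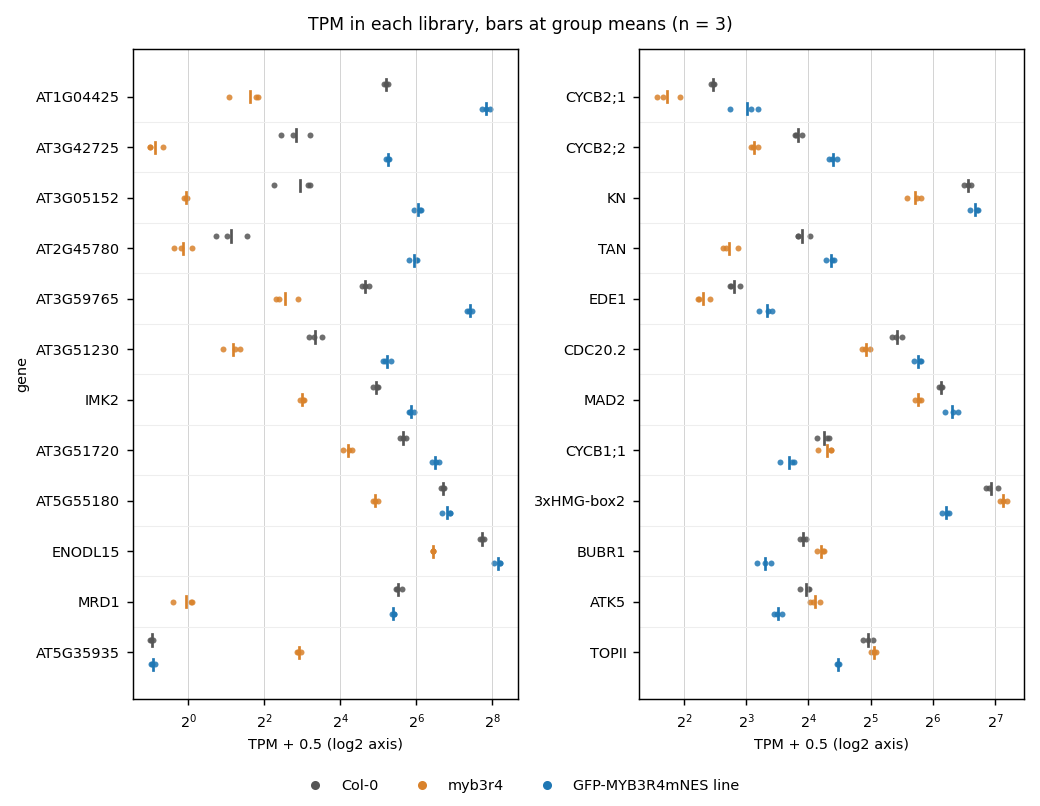
TPM + 0.5 on a log2 axis in each library (points) of Col-0, myb3r4 and the mNES line, with bars at the group means (n = 3), for genes with large or precise differences (left) and cell division genes (right). MRD1 and AT5G35935 are alike in Col-0 and the mNES line; the CYCB2 cyclins lie highest in the mNES line, while 3xHMG-box2 and BUBR1 lie lowest there.

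Cell division genes split in both directions. Of 19 mitotic cyclins and B-type cyclin-dependent kinases, 4 were higher and 9 lower, with a median of -0.19, against 11.6% higher, 17.9% lower and a median of -0.03 over all genes. CYCB2;2, a cyclin that drives entry into mitosis, was at 8.61, 7.91 and 8.18 TPM in myb3r4, 19.5, 21.5 and 20.4 TPM in the mNES line and 14.5, 13.5 and 13.2 TPM in Col-0. No values overlapped, and the rise was 1.26 (SE 0.0587, limma adjusted p = 1.25e-08). Its close relative CYCB2;1 rose by 1.28 (limma adjusted p = 1.93e-05), from a mean of 2.81 to 7.57 TPM. CYCB1;3 and CYCB1;4 were the other 2 that rose, by 0.43 and 0.39.

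CYCB1;1, a B-type cyclin widely used as a marker of G2 and M phases, went the other way, at 20.1, 20.2 and 17.3 TPM in myb3r4, 11.2, 12.8 and 13.1 TPM in the mNES line and 19.1, 19.6 and 17.1 TPM in Col-0. The mNES line was below both other groups, with a fall of 0.62 (SE 0.0735, limma adjusted p = 4.9e-05). CYCB2;3 fell by 0.57. CDKB2;1, a kinase partner of mitotic cyclins, was at 71, 72.8 and 73.4 TPM in myb3r4 and 50.5, 48 and 47.5 TPM in the mNES line, and fell by 0.57 (limma adjusted p = 1.54e-07); CDKB2;2 fell by 0.54. The summed level of the 19 genes was 401 to 429 TPM in myb3r4, 351 to 378 TPM in the mNES line and 405 to 421 TPM in Col-0.

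Of 23 mitotic regulators, spindle and chromosome genes, 6 were higher and 14 lower, with a median of -0.26. CDC20.2 and CDC20.1, activators of the anaphase-promoting complex, rose by 0.84 and 0.52; they are near-identical neighbours, so reads may be split between them. MAD2, a spindle checkpoint protein, rose by 0.54 (limma adjusted p = 2.26e-05), from 54 to 78.8 TPM. AT1G63100, a GRAS family transcription factor, rose by 0.42. On the other side, 3xHMG-box2, an HMG-box protein of mitotic chromosomes, was at 146, 139.8 and 135 TPM in myb3r4, 70.3, 76.4 and 74.2 TPM in the mNES line and 132, 119 and 115 TPM in Col-0. The mNES line was far below both, with a fall of 0.92 (SE 0.0493, limma adjusted p = 5.13e-08). BUBR1, another checkpoint gene, had 18.6, 18.3 and 17.2 TPM in myb3r4 and 8.53, 10.03 and 9.41 TPM in the mNES line and fell by 0.92 (limma adjusted p = 5.09e-07). ATK5, a spindle kinesin, and TOPII, the topoisomerase that untangles chromosomes, fell by 0.59 and 0.57.

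Of 24 cytokinesis and phragmoplast genes, 6 were higher and 13 lower, with a median of -0.19. KN, a syntaxin needed for vesicle fusion in cytokinesis, was at 55.7, 53.1 and 47.6 TPM in myb3r4, 96.6, 105 and 105 TPM in the mNES line and 97.2, 94.7 and 90.5 TPM in Col-0. The mNES and Col-0 libraries overlapped and those of myb3r4 were low, with a rise of 0.96 (SE 0.0579, limma adjusted p = 1.54e-07). TAN, a marker of the division plane, was at 6.84, 5.68 and 5.91 TPM in myb3r4 and 18.9, 20.9 and 20.4 TPM in the mNES line. It had the largest rise of the list, 1.63 (limma adjusted p = 7.27e-08). EDE1, which binds microtubules in dividing cells, rose by 1.03, and AT1G30690, a Sec14-like lipid transfer protein, by 0.45. The phragmoplast kinesins KIN12B and KIN12A, the microtubule bundler MAP65-4 and the kinesin POK1 fell by 0.42, 0.38, 0.42 and 0.39. Several division genes overlap a gene on the other strand, namely MAD2, KN, CDKB2;1, CDKB2;2, ATK5 and 3xHMG-box2 (with WRKY53), and their reads cannot be told apart without strand.

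**Figure D3:**
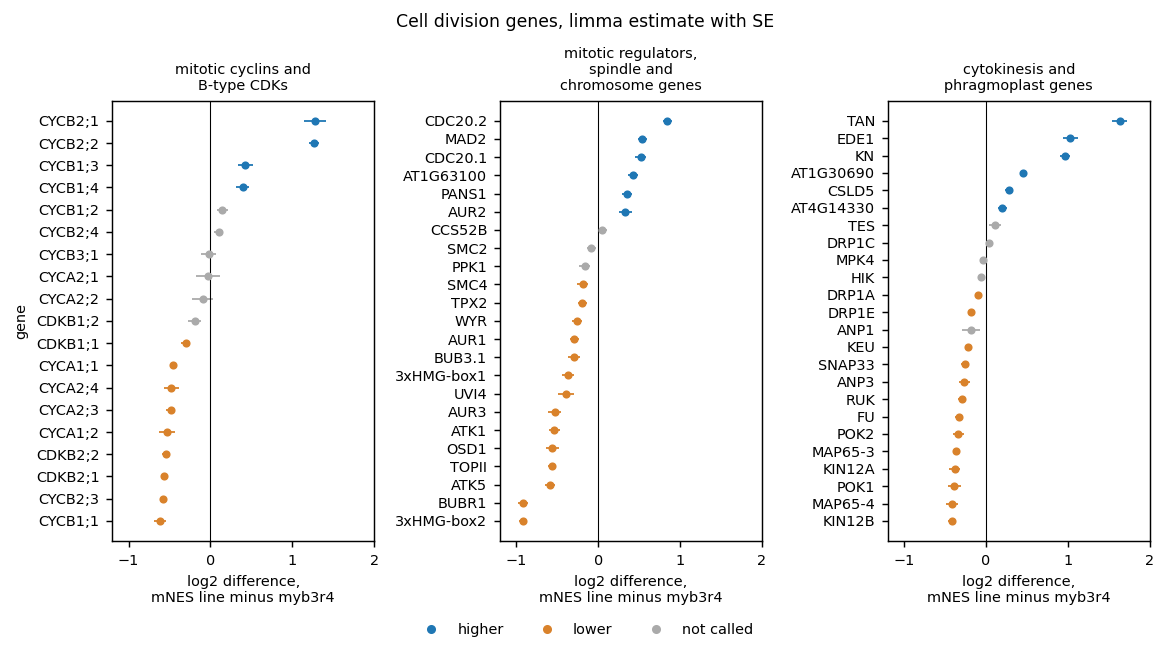
Log2 difference between the mNES line and myb3r4 with its SE (limma, n = 3 per group) for each tested member of the 3 cell division lists, sorted within a list. Blue members were higher, orange lower and grey not called; TAN is the highest at 1.63 and 3xHMG-box2 the lowest at -0.92.

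In the 3 division lists together, 10 of the 16 higher genes (62.5%) and 23 of the 36 lower genes (63.9%) held AACGG in the window, against 21.9% of all tested genes. At least 2 copies were found for 6 of the 16 (37.5%) and 8 of the 36 (22.2%). The longer MSA consensus, which contains the core, was found for 4 of the 16 (25%) and 1 of the 36 (2.78%), against 0.489% of all tested genes. The differences between the higher and the lower genes were not tested. These genes were put in the lists for known roles in division, so a share above that of all genes is no finding of this comparison. CYCB2;2 and KN, which rose, and 3xHMG-box2, which fell, are shown as members with small p in each direction, at chr4:16901346-16901595 (plus strand), chr1:2711001-2711250 (minus strand) and chr4:12389917-12390166 (plus strand) (RefSeq, TAIR10.1, 5′ to 3′ on the gene's strand, core in capitals in either orientation).
CYCB2;2: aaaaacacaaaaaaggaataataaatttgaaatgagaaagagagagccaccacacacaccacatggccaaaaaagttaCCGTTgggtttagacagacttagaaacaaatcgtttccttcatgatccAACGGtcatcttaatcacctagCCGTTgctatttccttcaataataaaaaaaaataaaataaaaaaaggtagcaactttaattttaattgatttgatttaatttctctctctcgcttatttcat
KN: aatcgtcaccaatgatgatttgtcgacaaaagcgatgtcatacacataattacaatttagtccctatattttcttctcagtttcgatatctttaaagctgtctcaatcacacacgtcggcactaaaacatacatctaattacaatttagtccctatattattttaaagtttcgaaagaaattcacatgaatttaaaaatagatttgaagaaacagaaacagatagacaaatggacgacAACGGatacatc
3xHMG-box2: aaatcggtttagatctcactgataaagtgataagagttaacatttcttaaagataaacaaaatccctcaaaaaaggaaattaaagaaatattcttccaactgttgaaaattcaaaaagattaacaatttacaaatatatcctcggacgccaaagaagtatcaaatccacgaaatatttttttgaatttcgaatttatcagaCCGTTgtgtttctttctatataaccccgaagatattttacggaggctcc

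In CYCB2;2 the cores begin 172, 124 and 102 bases before the gene start, in KN 12 bases and in 3xHMG-box2 49 bases before it. AT3G51230, printed above, has cores from 229 to 59 bases before its start.

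Most DNA replication genes were not called, while the histone genes were mostly lower. Of 21 DNA replication genes, 0 were higher and 5 lower (limma), with a median of -0.10. The 5 are 23.8% of the list, near the 17.9% over all genes. In this and every other list of the set with 0 genes called in a direction by limma, 0 also passed an unadjusted p of 0.05 in that direction. The 5 became 2 with median-of-ratios scaling, with only the 6 libraries compared, without mNES replicate 1 or without myb3r4 replicate 1, 3 without myb3r4 replicate 2, and 8 without replicate 3 of either group. MCM6, a subunit of the replicative helicase, fell by 0.24. All 8 histone H4 genes were lower, by 0.25 to 0.35, and their sum was 3395 to 3683 TPM in myb3r4, 2566 to 3071 TPM in the mNES line and 2925 to 3035 TPM in Col-0. The H4 copies are near-identical, so single members are uncertain. Among 49 tested histone genes taken by product name after values were seen, 31 were lower and 1 higher, with a median of -0.25.

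Among regulators of the cycle outside mitosis, D-type cyclins and kinase inhibitors followed no common direction, while E2F and DREAM components were lower where called. CYCD7;1, a D-type cyclin known from the last division of stomatal guard cells, was at 1.03, 0.788 and 1.4 TPM in myb3r4 and 9.09, 6.37 and 5.81 TPM in the mNES line. It rose by 2.27 without overlap (SE 0.226, limma adjusted p = 1.23e-05). CYCD3;1 and CYCD3;3, which link cytokinin to division, fell by 0.44 and 0.23, and the other 7 of 10 D-type cyclins were not called. The shares of D-type cyclins, 10% higher and 20% lower, were near the 11.6% and 17.9% over all genes. Of 19 cyclin-dependent kinase inhibitors, 2 were higher, SIM by 0.44 and AT5G40460 by 0.35. A further 3 were lower, with AT2G32710 furthest at -0.63. The shares of these inhibitors, 10.5% higher and 15.8% lower, were also near those over all genes. Of 14 E2F and DREAM components, 0 were higher and 6 lower (limma), or 42.9% against 17.9% lower over all genes. TCX2, a DREAM subunit, was at -0.42, and E2FB at -0.38.

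Cytokinin genes were, where called, almost all lower. Over all genes lower calls also outnumbered higher ones (17.9% against 11.6%), a split that depended on scaling. Of 8 type-A response regulators, which are switched on by cytokinin and damp its signal, 0 were higher and 4 (50%) lower (limma, median -0.18). ARR7 was at 107, 132 and 116 TPM in myb3r4, 80.7, 77.6 and 84.8 TPM in the mNES line and 82, 92.5 and 94.2 TPM in Col-0. The mNES and Col-0 libraries overlapped and myb3r4 was higher than both, so ARR7 fell by 0.54 (SE 0.0767, limma adjusted p = 0.000188). ARR9 fell by 0.59 and ARR5 by 0.51. Of 14 receptors, phosphotransfer proteins and type-B response regulators, 5 (35.7%) were lower and 0 higher (limma). Among the 5 were the response regulators ARR14 at -0.43 and ARR1 at -0.36 and the receptor AHK2 at -0.34. In cytokinin metabolism LOG4 (groups overlapping, limma adjusted p = 0.0108) and LOG5 (without overlap), which make active cytokinin, fell by 0.81 and 0.75. CKX3, which degrades it, rose by 0.34 (limma adjusted p = 0.0464), whereas CKX6, an enzyme of the same family, fell by 0.51 without overlap (limma adjusted p = 5.95e-05). CKX3 was the only one of 14 genes that was higher, against 4 lower (28.6%), or 2 lower with only the 6 libraries compared. Of 10 importin alpha and exportin genes, 2 were lower (20%, near the 17.9% over all genes). IMPA6 fell from 30.7, 30.9 and 32.5 TPM in myb3r4 to 20.2, 23.3 and 23.2 TPM in the mNES line, by 0.49 (limma adjusted p = 5.35e-05), and IMPA3 fell by 0.34, both without overlap.

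In the meristem list, 1 of 14 genes was higher (7.14%) and 8 were lower (57.1%), with a median of -0.26. Over all genes 11.6% were higher and 17.9% lower. The one that rose was WUS, which keeps stem cells in the meristem centre, at 10.5, 8.52 and 11.6 TPM in myb3r4, 15, 15.1 and 16.9 TPM in the mNES line and 13.8, 13.7 and 11.7 TPM in Col-0. The mNES libraries were above all those of myb3r4, a rise of 0.60 (SE 0.136, limma adjusted p = 0.00503). KNAT6 and KNAT2, homeobox genes of the meristem, and CUC1 and CUC3, which form organ boundaries, fell by 0.55, 0.50, 0.46 and 0.45. Of 16 floral identity and organ genes, 0 were higher and 10 (62.5%) lower (limma, median -0.22). LFY, which sets floral fate, was at 5.81, 3.55 and 4.1 TPM in myb3r4 and 2.28, 2.41 and 2.7 TPM in the mNES line and fell by 0.73 (limma adjusted p = 0.00247). SEP2 fell by 0.56 and AP1 by 0.43, whereas AG, PI and SEP3 differed by 0.02, -0.02 and -0.02 and were not called.

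**Figure D4:**
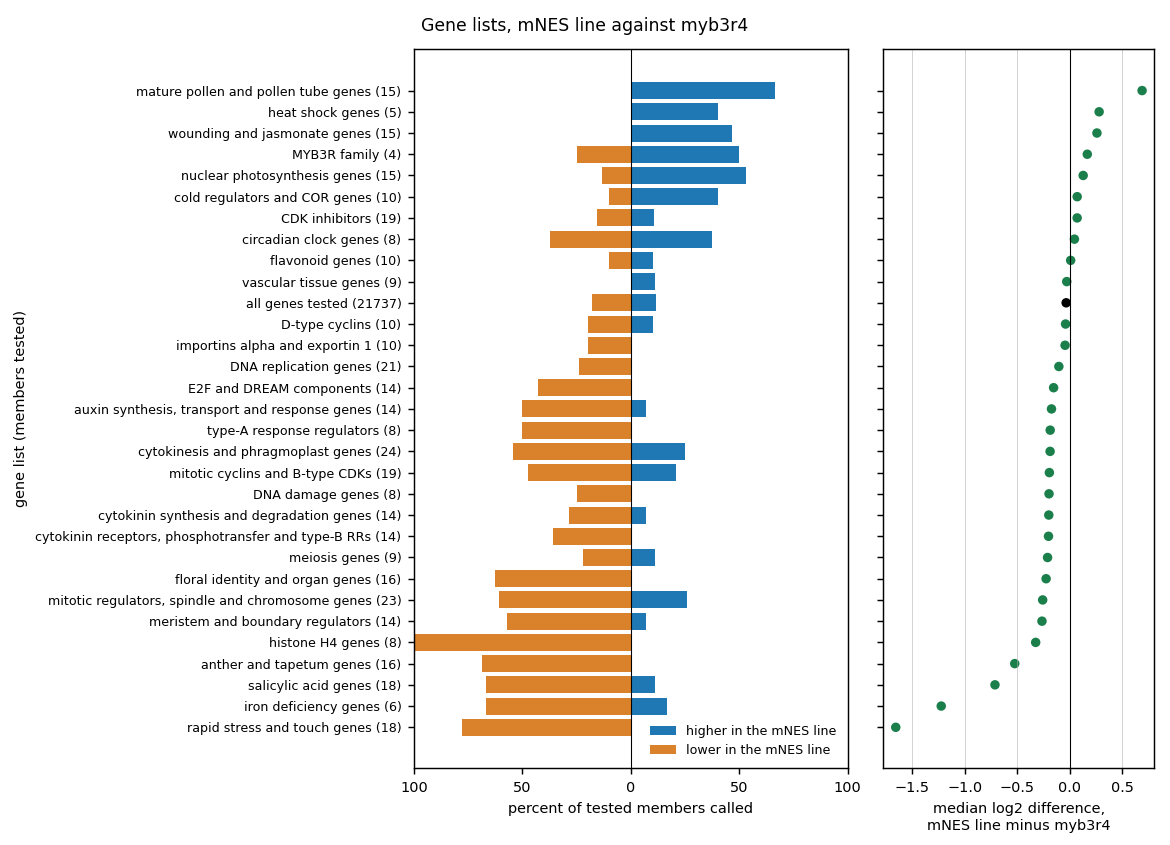
Percent of tested members called higher (right) and lower (left) in the mNES line against myb3r4 for the 30 gene lists and all genes tested, with the number tested in brackets, and the median log2 difference of each list. Medians run from -1.66 for rapid stress genes to 0.69 for pollen genes, with all genes at -0.03.

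Rapid stress and touch genes had the largest shift of any list. Of 18 tested, 14 were lower (77.8%, against 17.9% over all genes) and 0 higher (limma), with a median of -1.66. ERF105, an ethylene response factor induced within minutes of stress, was at 21.1, 13.2 and 20.4 TPM in myb3r4, 1.02, 1.29 and 1.22 TPM in the mNES line and 0.41, 2.92 and 2.71 TPM in Col-0. The myb3r4 libraries stood above all those of the mNES line and Col-0. The mNES line differed from myb3r4 by -3.46 (SE 0.408, limma adjusted p = 4.59e-05). In myb3r1myb3r4 ERF105 was high too, with a mean of 12.6 TPM. ERF104 and ERF6, of the same family, fell by 2.54 and 2.33, and TCH4, a touch-induced cell wall enzyme, by 2.58 from 23.5 to 3.59 TPM. The summed level of the whole list, tested or not, was 290 to 299 TPM in myb3r4 and 100 to 108 TPM in the mNES line. Col-0 spread widely, from 87.6 to 195 TPM with replicate 1 lowest, and overlapped with the mNES line.

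Salicylic acid genes, which act in defence, showed a like pattern. Of 18, 12 were lower (66.7%) and 2 higher (11.1%), with a median of -0.71. ACD6, an ankyrin protein that promotes salicylic acid signalling, was at 24, 24.4 and 19.9 TPM in myb3r4, 3.81, 2.97 and 3.31 TPM in the mNES line and 7.9, 9.7 and 9.82 TPM in Col-0. No values overlapped, Col-0 lay between, and the fall was 2.59 (SE 0.106, limma adjusted p = 2.83e-09). WRKY70, a defence transcription factor, had 128, 142 and 119 TPM in myb3r4 and 37.8, 41.3 and 32.5 TPM in the mNES line and fell by 1.79 (limma adjusted p = 0.000123). SARD1, which promotes salicylic acid synthesis, fell by 1.77 and PNP-A, a natriuretic peptide, by 1.37. PR5 and EDS5 rose, by 1.10 and 0.67, the latter not called with a replicate block (1 higher gene in place of 2); the biosynthetic gene ICS1 differed by -0.07 and was not called. The summed level of the whole list, tested or not, was 279 to 309 TPM in myb3r4 and 130 to 154 TPM in the mNES line. In Col-0 it was 127 to 194 TPM.

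Other large falls lay outside these lists. BT2, a BTB-domain protein, was at 50.3, 50.1 and 58 TPM in myb3r4, 9.63, 7.05 and 5.2 TPM in the mNES line and 5.02, 17.3 and 30.8 TPM in Col-0, and fell by 2.81 (limma adjusted p = 0.00286). NAC036, a transcription factor, fell by 2.75 and AT5G52760, of the copper transport family, by 2.65. AT2G30766, in the iron deficiency list, was at 6.21, 9.16 and 3.05 TPM in myb3r4 and listed at 0 in all 3 mNES libraries. It overlaps AT2G30760 and AT2G30770 on the other strand. Of the 6 tested genes of that list 4 were lower (2 with a filter of 5 TPM), while the iron store gene FER1 rose by 0.49. The summed level of the whole iron list, tested or not, went up, from 187 to 198 TPM in myb3r4 to 237 to 273 TPM in the mNES line. In Col-0 it was 234 to 261 TPM. At high levels, AT2G25510, an uncharacterized gene, fell by 1.42 from a mean of 406 to 153 TPM, and AT3G22235, of a family of cysteine-rich stress proteins, by 1.83 from 69.1 to 19.2 TPM.

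Pollen genes were the list with the highest median. Of 15 genes of mature pollen and pollen tubes, 10 were higher (66.7%, against 11.6% over all genes) and 0 lower (limma), with a median of 0.69. STP11, a sugar transporter of pollen tubes, was at 0.211, 0.534 and 0.338 TPM in myb3r4, 9.64, 4.8 and 7.2 TPM in the mNES line and 1.32, 2.32 and 1.13 TPM in Col-0. The groups did not overlap and the rise was 3.13 (SE 0.256, limma adjusted p = 2.8e-06). RALFL19, a pollen tube peptide, rose by 1.93, the receptor kinase ANX2 by 1.93, and VGDH1, a pectin methylesterase, by 1.98. The sperm lineage regulator DUO1 differed by -0.07 and was not called. The summed level was 345 to 574 TPM in myb3r4, 732 to 991 TPM in the mNES line and 659 to 769 TPM in Col-0, so the mNES line and Col-0 overlapped.

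Families of small secreted peptides were taken by product name after values were seen. Genes low elsewhere could pass the minimum level through the 3 mNES libraries alone. The counts of higher genes among those tested may thus be set in part by that filter. All 7 tested genes for egg cell-secreted-like proteins were higher, with a median of 2.83. AT2G27315, one of them, was at 0, 0.344 and 0 TPM in myb3r4 and 10.1, 6.25 and 8.22 TPM in the mNES line. The summed level of all 9 genes of this family, tested or not, was 0.526 to 1.98 TPM in myb3r4. It was 19.97 to 32.1 TPM in the mNES line and 5.77 to 7.51 TPM in Col-0. Of 74 tested defensin-like and related cysteine-rich peptides, 34 were higher (45.9%, against 11.6% over all genes) and 3 lower (median 1.01). AT5G60615, a defensin-like gene, was at 18.1, 29.2 and 29.5 TPM in myb3r4, 307, 198 and 194 TPM in the mNES line and 37, 89.1 and 39.8 TPM in Col-0, with no overlap and a rise of 3.16 (limma adjusted p = 0.00152). Of 19 RALF-like peptides, 8 were higher (42.1%) and 5 lower (26.3%, against 17.9% over all genes), with a median of 1.17. RALFL26 rose by 3.26, from 2.39, 2.94 and 3.09 TPM in myb3r4 to 37.1, 24.3 and 33.4 TPM in the mNES line.

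Genes of the anther and tapetum, which nourishes pollen, went the other way, but on few libraries. Of 16, 11 were lower (68.75%, against 17.9% over all genes) and 0 higher (limma), with a median of -0.52. The 11 became 3 without mNES replicate 1, 2 without myb3r4 replicate 1, 6 without myb3r4 replicate 2 and 2 with only the 6 libraries compared. LAP5, an enzyme of the pollen wall, was at 101, 73.5 and 72.9 TPM in myb3r4, 34.5, 50.7 and 69 TPM in the mNES line and 102, 85.3 and 81.7 TPM in Col-0. Its mNES values spread 2-fold, with replicate 1 lowest, and it fell by 0.72 (limma adjusted p = 0.0171). ATA7, a lipid transfer protein of the tapetum, had 462, 457 and 408 TPM in myb3r4 and 247, 317 and 306 TPM in the mNES line and fell by 0.61 (limma adjusted p = 0.000619). The summed level of the list was 1958 to 2165 TPM in myb3r4, 1431 to 1808 TPM in the mNES line and 2095 to 2385 TPM in Col-0. Some members of the floral, pollen and anther lists were called between the groups, and the part of flower stage in these differences was not tested.

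**Figure D5:**
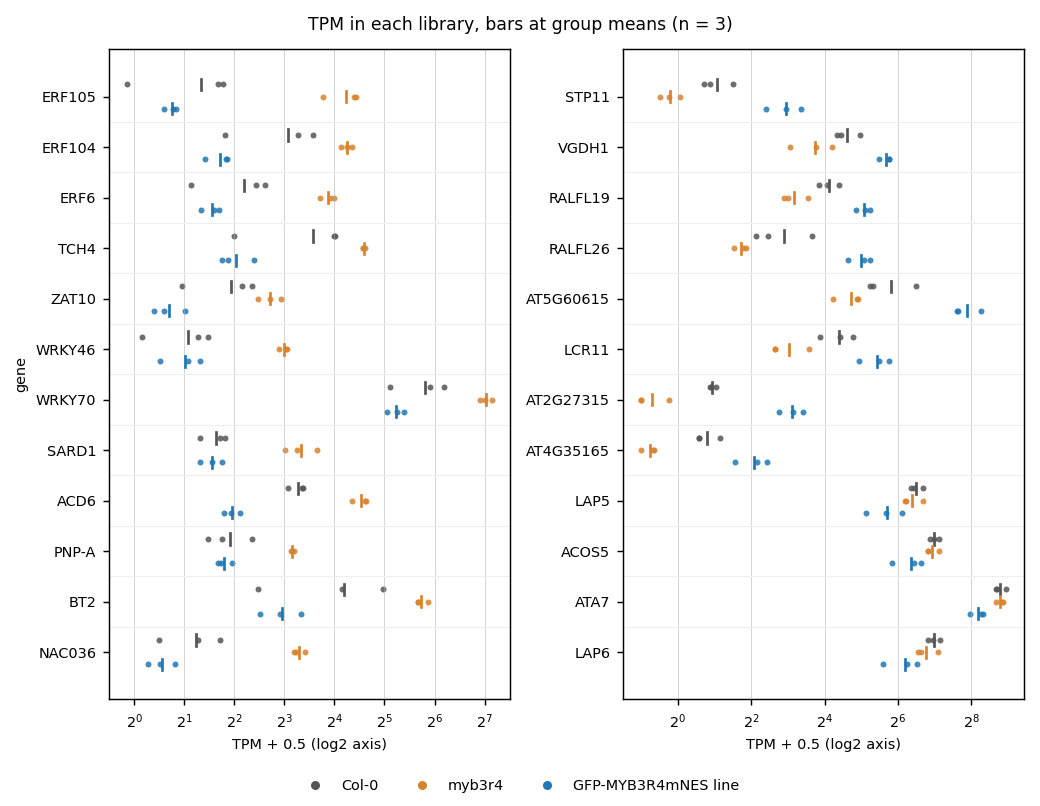
TPM + 0.5 on a log2 axis in each library (points) of Col-0, myb3r4 and the mNES line, with bars at the group means (n = 3), for stress and salicylic acid genes (left) and for pollen, peptide and tapetum genes (right). The myb3r4 libraries are highest for all 12 genes on the left, where Col-0 spreads widely for several, and lowest for the pollen and peptide genes; LAP5, LAP6, ACOS5 and ATA7 are lowest in the mNES line.

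Leaf and hormone lists moved less. Over all genes 11.6% were higher and 17.9% lower. Of 15 nuclear photosynthesis genes, 8 were higher and 2 lower (median 0.13); the 8 became 4 without mNES replicate 1 or without myb3r4 replicate 1, and the 2 became 0 with median-of-ratios or upper-quartile scaling. LHCB1.1, a light-harvesting protein, was at 67.2, 69.3 and 84.3 TPM in myb3r4, 205, 209 and 217 TPM in the mNES line and 308, 335 and 291 TPM in Col-0. It rose by 1.51 and stayed below Col-0; near-identical copies may share its reads. Of 15 wounding and jasmonate genes, 7 were higher and 0 lower (limma; 4 without myb3r4 replicate 2). VSP2, a storage protein induced by jasmonate, rose by 0.84 from 302 to 538 TPM, and JAZ5, a repressor of the pathway, by 0.65. Among 14 auxin genes, 1 was higher (the transporter gene PIN3, by 0.54) and 7 lower, 4 without myb3r4 replicate 1. The clock list had 3 higher and 3 lower of 8 (37.5% each way, 1 lower without mNES replicate 3). The list of cold response genes had 4 higher (40%) and 1 lower (10%) of 10. Heat shock genes had 2 higher (40%) and 0 lower of 5 (limma). Meiosis genes had 1 higher (11.1%) and 2 lower (22.2%) of 9. Vascular tissue genes had 1 higher (11.1%) and 0 lower of 9 (limma). DNA damage genes had 0 higher and 2 lower (25%) of 8 (limma), and flavonoid genes 1 each way of 10 (10%).

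Col-0 served as the reference for both lines. Of the 727 genes at least 2-fold higher, the Col-0 mean lay between those of the mNES line and myb3r4 for 690 (94.9%); 499 were also higher than Col-0 in the mNES line and 190 were lower than Col-0 in myb3r4 (limma). Of the 196 at least 2-fold lower, it lay between for 171 (87.2%), with 77 lower than Col-0 in the mNES line and 93 higher than Col-0 in myb3r4. Over all tested genes it lay between for 47.8%, and 7.6% were higher and 9.39% lower in the mNES line than in Col-0, and 4.55% higher and 3.04% lower in myb3r4. These comparisons share libraries, and one mean falls between 2 others more often the farther apart these are, so the shares are a description. For the named division genes both patterns occurred. The mNES line differed from Col-0 by 0.56 for CYCB2;2, 0.46 for TAN and 0.12 for KN, and myb3r4 from Col-0 by -0.70, -1.17 and -0.85. For CYCB1;1, 3xHMG-box2 and BUBR1 the mNES line differed from Col-0 by -0.57, -0.72 and -0.62, and myb3r4 by 0.04, 0.20 and 0.30.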

How the data were processed

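RNA-seq of 15 Arabidopsis libraries in 5 groups was analysed, and groups came from the labels. The deposited table held TPM values per gene that the authors made with Salmon after FastQC on the TAIR10 reference, per the submitters' processing notes, which name no versions. The summing of transcripts to genes and the use of strand are not given in the sources used here. Depth is unknown.

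Genes with at least 1 TPM in 3 or more libraries (21737) were tested with limma 3.58.1 in R 4.3.3 on log2(TPM + 0.5), which understates changes of low genes. The 5 group means were fitted to all 15 libraries (10 residual degrees of freedom, prior 3.184, variance trend). Tests were two-sided, with Benjamini-Hochberg adjustment over all genes and a threshold of 0.05. The model was tested on simulated data. Symbols and the 250 bases upstream came from RefSeq's TAIR10.1, which held 98.8% of the tested genes.

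The members and the 30 lists (420 genes, 393 tested) were chosen with earlier results of these data known. The text draws on MYB3R1 and MYB3R4, the 10 largest changes each way (adjusted p under 0.05, groups not overlapping, mean of at least 5 TPM in the higher group), up to 4 called genes of each list each way, and the 6 smallest p each way at a mean of at least 10 TPM. Other named genes were chosen after their values were seen. The 15 alternatives covered pseudocounts of 1 and 0.1, filters, scaling, samples fitted, variance trend, a replicate block and leaving out each of the 6 libraries. The labels also number a shift experiment from 1 to 3, which equals the replicate number in every group and is not explained. Same-numbered libraries of the mNES line and myb3r4 may thus share an experiment, although their deviations from the group means correlated at only -0.0859, 0.0879 and 0.0565. The replicate block is the same as a block on this number.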

Additional observations from a re-analysis of the deposited data

How the results depend on the processing

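Of 153 named genes, all called, 119 kept their call and direction in each of the 15 alternatives that tested them. In at least 1 alternative 34 lost the call, and 0 reversed. With the filter of 5 TPM, 144 kept the call, 0 lost it and the rest were not tested. The fit to only the 6 libraries compared lost the most, 24. Leaving out 1 library at a time gave 4852 to 5880 called genes (6404 with all), 1982 to 2475 higher, 2870 to 3486 lower, 619 to 802 at least 2-fold higher, 188 to 216 at least 2-fold lower, 178 to 216 called list members (217 with all), and 23.5% to 24.6% of higher genes with the MSA core. The Col-0 mean then lay between for 4055 to 4735 called genes (5155 with all), below both for 421 to 619 (594 with all) and above both for 376 to 613 (655 with all); the 376 came without myb3r4 replicate 1. With only the 6 libraries it lay below both for 390 and above both for 322. With a filter of 5 TPM, 368 genes in place of 727 were at least 2-fold higher. Fewer genes or samples entered these fits. A replicate block, which also stands for the numbered experiment of the labels, gave 2432 higher and 3706 lower genes. Of the 153 named genes 5 lost their call with it, EDS5 among them, and 148 kept it. List medians stayed close in 400 cases and moved by more in 50. Without read counts, counting error at low TPM is unknown.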

Other observations

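Further families, taken by product name after values were seen, gave the following counts in the mNES line against myb3r4. Over all genes tested, 11.6% were higher and 17.9% lower. A mixed set held pectin methylesterases, invertase or pectin methylesterase inhibitors, and pectin lyase-like proteins. Of its 139 tested genes, 61 were higher (43.9%) and 17 lower (12.2%). Their median log2 difference was 0.21. Of 47 tested WRKY transcription factor genes, known for defence, 23 were lower (48.9%) and 2 higher (4.26%), with a median of -0.30. The summed level of all 72 genes of that family, tested or not, was 529 to 557 TPM in myb3r4. It was 343 to 362 TPM in the mNES line and 371 to 433 TPM in Col-0. EF-hand calcium-binding proteins split, with 10 higher (18.2%) and 13 lower (23.6%) of 55. AT4G03290, one of them, rose by 3.35 from a mean of 2.59 to 29.0 TPM, and AT4G27280 fell by 2.30 from 58.1 to 11.4 TPM.

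In large housekeeping families few genes were called. Of 331 nuclear genes for ribosomal proteins, 20 were higher (6.04%) and 7 lower (2.11%), with a median of 0.01. These shares were below the 11.6% and 17.9% over all genes. Of 27 genes for 26S proteasome subunits 1 was higher and 0 lower (limma, 0 lower at an unadjusted p of 0.05), with a median of -0.00159. Of 104 genes of the chloroplast genome, 7 were higher and 0 lower (limma; 2 lower at an unadjusted p of 0.05), with a median of 0.20.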
